A study of Homo sapiens with 4 samples.

Results

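Of 19951 protein-coding genes in the table, 10 had far fewer reads in SUP-M2 lymphoma cells labelled shGOLM1 than in cells labelled shscramble: RIC8B, GLB1L2, MAP9, IAH1, SLC4A4, TERT, CASKIN1, SERPINB4, EDNRA and BMP5. They were chosen by their counts. Each had at least 100 counts in both shscramble libraries, and each had, in both shGOLM1 libraries, at most 25% of the smaller shscramble count. Of the coding genes, 13 met these thresholds, and RMND5A, RTL6 and IL18RAP were set aside by name. The 10 genes were 0.107% of the 9358 coding genes that reached 100 counts in both shscramble libraries. Because the counts of this contrast chose the genes, their differences are given as a description and carry no test. The term nearly lost holds by the counts for RIC8B, GLB1L2 and MAP9, which kept less than 5% of their shscramble level. The other 7 genes kept between 7.53% and 25.9% of it, as the ratio of group means in CPM (counts scaled to library size, with TMM factors).

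SUP-M2 is a long-established human line grown from an anaplastic large cell lymphoma, a tumour of T cell origin, and carries an active ALK kinase. The study sequenced RNA from 2 samples with short hairpin RNA against GOLM1, a membrane protein of the Golgi apparatus, and from 2 samples with a scrambled hairpin. The genotype label calls the first pair a GOLM1 knockout and the second control, although both titles name hairpins, and whether the shGOLM1 samples shared a hairpin sequence or came from separate cultures is not stated. No drug, time or selection is named for either group. GOLM1 itself had 2414 and 1583 counts in shGOLM1 replicates 1 and 2, against 6907 and 7090 counts in shscramble replicates 1 and 2. That is 69.6 ± 0.0515 CPM in shGOLM1 and 212 ± 1.06 CPM in shscramble (SD, n = 2 each), so less GOLM1 transcript was counted, with some left, in both shGOLM1 libraries. Its log2 fold change was -1.61, which edgeR's test left at an adjusted p of 0.42 and DESeq2 at 0.0208. BCL2L1, the gene of the anti-apoptotic protein named in the study's title, was at 16.8 ± 1.78 CPM in shGOLM1 and 24.6 ± 3.51 CPM in shscramble (SD, n = 2 each).

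The libraries held 30889185 and 27544171 counts in shGOLM1 and 31972153 and 31608073 counts in shscramble. Where no read was counted, the true value may reach 3 counts, or 0.0865 and 0.132 CPM in the shGOLM1 libraries, a limit for counting error alone. All 9 markers of anaplastic large cell lymphoma looked at, among them TNFRSF8 and ALK, were above 1 CPM in every library. Their levels were not steady. TNFRSF8 was at 539 and 88.4 CPM in shGOLM1 and 634 and 614 CPM in shscramble. ALK was at 327 and 170 CPM in shGOLM1 and 340 and 316 CPM in shscramble. PRF1 was higher, at 621 and 145 CPM in shGOLM1 and 2.91 and 2.71 CPM in shscramble. Of 8 T cell markers, CD4, TRAC and CD2 were above 1 CPM in every library and CD3G was at 0 in all. The T cell markers summed to 325 and 405 CPM in shGOLM1 and 193 and 188 CPM in shscramble. Most of that was CD4, at 307 and 380 CPM in shGOLM1 and 182 and 180 CPM in shscramble. CD3D, at 0.548 and 6.24 CPM in shGOLM1 and 1.84 and 1.35 CPM in shscramble, went in different directions in the shGOLM1 libraries. The 4 NK cell markers summed to 1.33 and 0.571 CPM in shGOLM1 and were at 0 in shscramble, nearly all of it from NCAM1 at 1.30 and 0.571 CPM. The 6 fibroblast markers summed to 2.16 and 2.20 CPM in shGOLM1 and 0.276 and 0.902 CPM in shscramble. Of them LUM had the most in shGOLM1, 0.923 and 1.71 CPM, and was at 0 in shscramble. Mitochondrially encoded genes took 1.95% and 0.455% of counts in shGOLM1 replicates 1 and 2, against 2.38% and 2.24% in shscramble. Ribosomal protein genes took 6.57% and 14.7% in shGOLM1 and 8.77% and 7.44% in shscramble. Epithelial markers (5 genes) summed to 0.606 and 3.16 CPM in shGOLM1 and 0.398 and 0.601 CPM in shscramble, with KRT19 at 0 in all. Most of that was KRT8, at 0.375 and 2.37 CPM in shGOLM1 and 0.306 and 0.361 CPM in shscramble. The part of these differences in the low values of the 10 genes was not tested. In bulk RNA, fewer cells that express a gene and less of its RNA per cell cannot be told apart.

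The products of the 10 genes have varied roles. EDNRA encodes the endothelin A receptor, a G protein-coupled receptor for a peptide that constricts vessels, and RIC8B encodes a folding chaperone and exchange factor for alpha subunits of stimulatory G proteins. BMP5 encodes a secreted bone morphogenetic protein, which signals through serine-threonine kinase receptors to SMAD transcription factors. SLC4A4 encodes a sodium bicarbonate cotransporter that takes part in control of intracellular pH. TERT encodes the reverse transcriptase subunit of telomerase, the enzyme that extends chromosome ends and keeps most cancer cell lines dividing. SERPINB4 is an intracellular protease inhibitor of the serpin family, known from squamous epithelium and its carcinomas. MAP9 binds microtubules of the mitotic spindle, CASKIN1 is a scaffold protein that binds the synaptic kinase-like protein CASK, IAH1 is named as a homologue of a yeast esterase, and GLB1L2 is related to lysosomal beta-galactosidase.

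The start-site windows of 4 of these genes differ in how many CpG dinucleotides they hold. Each window runs from 250 bases before to 50 bases after the gene's start, in RefSeq's annotation of GRCh38.p14, is written 5′ to 3′ on the gene's own strand, and has its CpG dinucleotides in capitals. TERT (chr5:1295019-1295318, minus strand) stands for the windows with many CpG dinucleotides, MAP9 (chr4:155376916-155377215, minus strand) for those between, and SERPINB4 (chr18:63644207-63644506, minus strand) and BMP5 (chr6:55875541-55875840, minus strand) for those with few.
MAP9: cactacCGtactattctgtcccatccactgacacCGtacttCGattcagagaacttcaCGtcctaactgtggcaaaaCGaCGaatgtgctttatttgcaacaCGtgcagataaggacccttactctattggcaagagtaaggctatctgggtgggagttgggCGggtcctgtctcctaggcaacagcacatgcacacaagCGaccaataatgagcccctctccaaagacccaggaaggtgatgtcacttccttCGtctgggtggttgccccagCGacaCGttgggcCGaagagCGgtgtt
TERT: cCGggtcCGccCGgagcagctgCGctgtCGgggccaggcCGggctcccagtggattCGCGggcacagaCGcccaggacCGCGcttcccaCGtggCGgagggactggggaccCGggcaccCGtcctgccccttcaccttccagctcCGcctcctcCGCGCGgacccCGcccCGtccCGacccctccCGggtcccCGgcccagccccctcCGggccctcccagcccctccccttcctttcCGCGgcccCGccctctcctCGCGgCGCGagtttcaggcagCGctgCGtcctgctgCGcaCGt
SERPINB4: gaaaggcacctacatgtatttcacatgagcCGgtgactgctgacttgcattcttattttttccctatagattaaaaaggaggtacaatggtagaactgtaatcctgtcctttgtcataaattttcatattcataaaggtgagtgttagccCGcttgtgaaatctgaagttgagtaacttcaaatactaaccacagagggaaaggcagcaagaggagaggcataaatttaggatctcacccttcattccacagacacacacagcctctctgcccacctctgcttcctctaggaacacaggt
BMP5: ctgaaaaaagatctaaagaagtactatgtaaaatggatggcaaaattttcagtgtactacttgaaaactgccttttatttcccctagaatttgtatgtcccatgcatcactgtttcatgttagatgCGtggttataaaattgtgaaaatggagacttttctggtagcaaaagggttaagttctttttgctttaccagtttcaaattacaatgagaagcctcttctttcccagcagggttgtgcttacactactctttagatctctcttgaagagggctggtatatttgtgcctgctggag

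RIC8B (ENSG00000111785, chromosome 12, 106774595 to 106889316, plus strand, GRCh38) had 0 counts in both shGOLM1 libraries, against 211 and 225 counts in shscramble replicates 1 and 2. The shscramble mean was 6.62 ± 0.211 CPM (SD, n = 2), so RIC8B was at least 60.6-fold lower in shGOLM1, taking 3 counts per shGOLM1 library as its floor. The authors' annotation gives the gene 7795 bases of exon, and GENCODE 29 gives it 13 transcripts of up to 13 exons. No read was assigned to it in 58433356 shGOLM1 counts. Its paralogue RIC8A, a chaperone of other G protein alpha subunits, had 2809 and 548 counts in shGOLM1 and 3899 and 3615 counts in shscramble. RIC8A was thus low in shGOLM1 replicate 2 above all, and neither library came near 0. Of RIC8A and 13 G protein alpha subunit genes, 10 were tested. By CPM, 4 of them lay lower in shGOLM1 without overlap of the groups and 2 lay higher, where 26.5% of all 14166 genes tested lay lower and 25.2% higher in this way. GNAL, an alpha subunit known as a client of RIC8B, had 1015 and 566 counts in shGOLM1 and 952 and 1029 counts in shscramble. GNAS, the most counted alpha subunit gene, had 17317 and 44517 counts in shGOLM1 and 20611 and 19965 counts in shscramble. It was high in shGOLM1 replicate 2 only, and the groups overlapped.

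GLB1L2 (ENSG00000149328, chromosome 11, 134331874 to 134378341, plus strand) had 0 counts in both shGOLM1 libraries as well, against 198 and 171 counts in shscramble. At 5.61 ± 0.655 CPM in shscramble (SD, n = 2), it was at least 51.4-fold lower in shGOLM1. The family member GLB1L3, its next coding gene on the chromosome, had 259 and 192 counts in shGOLM1 and 400 and 388 counts in shscramble. GLB1, the lysosomal beta-galactosidase, had 968 and 1499 counts in shGOLM1 and 872 and 865 counts in shscramble, and lay higher in both shGOLM1 libraries by CPM. The 3 other genes of this family went in different directions, with 1 lower, 1 higher and 1 overlapping, beside 26.5% lower and 25.2% higher over all genes tested.

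MAP9 (ENSG00000164114, chromosome 4, 155342658 to 155376970, minus strand) had 5 and 0 counts in shGOLM1 replicates 1 and 2, against 188 and 168 counts in shscramble. Summed over each pair, it was 62.1-fold lower in shGOLM1. That fold rests on 5 shGOLM1 reads and is a description, since these counts chose the gene. Unlike RIC8B and GLB1L2, it was still detected in shGOLM1 replicate 1. Of 12 other structural microtubule-associated genes, 9 were tested, with 2 lower and 2 higher without overlap. That is 22.2% each way, near the 26.5% lower and 25.2% higher over all genes tested. MAP4, the most counted of them, had 9457 and 3927 counts in shGOLM1 and 5258 and 6089 counts in shscramble, and the groups overlapped. MAP10 had 348 and 9 counts in shGOLM1 and 543 and 511 counts in shscramble, low mainly in replicate 2.

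CASKIN1 (ENSG00000167971, chromosome 16, 2177180 to 2196525, minus strand) had 153 and 11 counts in shGOLM1, against 984 and 1160 counts in shscramble. Its mean was 2.45 ± 2.78 CPM in shGOLM1 and 32.5 ± 3.34 CPM in shscramble (SD, n = 2 each), which is 13.3-fold lower. The shGOLM1 libraries differed by 9.13-fold in CPM, the widest gap among the 7 members above 0 in both. Against the shscramble mean CASKIN1 was 7.37-fold lower in shGOLM1 replicate 1 and 67.3-fold lower in replicate 2, so the fold of the means describes neither library well. The kinase-like partner CASK had 2958 and 1867 counts in shGOLM1 and 3077 and 3391 counts in shscramble, a log2 fold change of -0.23. Its paralogue CASKIN2 was barely counted, with 13 and 3 counts in shGOLM1 and 28 and 14 counts in shscramble. Among 7 tested genes of the CASK scaffold, 2 lay lower (28.6%) and 1 higher (14.3%) without overlap. Over all genes tested, 26.5% lay lower and 25.2% higher.

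TERT (ENSG00000164362, chromosome 5, 1253147 to 1295069, minus strand) had 35 and 13 counts in shGOLM1, against 250 and 280 counts in shscramble. It averaged 0.790 ± 0.310 CPM in shGOLM1 and 8.04 ± 0.535 CPM in shscramble (SD, n = 2 each), 10.2-fold lower. Both shGOLM1 libraries were low, at 1.01 and 0.571 CPM in replicates 1 and 2, as the rule requires. Other genes of telomerase, which the rule did not choose, differed by less. DKC1, which holds the telomerase RNA, had 5059 and 1088 counts in shGOLM1 and 8850 and 8722 counts in shscramble, with a log2 fold change of -1.46. GAR1 had a log2 fold change of -1.32 and NHP2 of -0.72, while that of NOP10 was -0.20 with overlapping groups. Of 16 genes of the telomerase particle, its assembly and the telomere-binding shelterin complex, 9 lay lower and 1 (ACD) higher without overlap. That is 56.2% lower, beside 26.5% over all genes tested. Over the coding genes with at least 100 counts in both shscramble libraries, as all 16 have, it was 33.1%. RUVBL1, an assembly factor, had 2926 and 539 counts in shGOLM1 and 5315 and 5046 counts in shscramble. POT1, the shelterin subunit that binds single-stranded telomeric DNA, had 1611 and 1648 counts in shGOLM1 and 1777 and 1763 counts in shscramble.

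SLC4A4 (ENSG00000080493, chromosome 4, 71062667 to 71572087, plus strand) had 104 and 44 counts in shGOLM1, against 889 and 836 counts in shscramble. Its mean was 2.47 ± 0.754 CPM in shGOLM1 and 26.2 ± 1.49 CPM in shscramble (SD, n = 2 each), 10.6-fold lower. Of the 9 other genes of its family, SLC4A2, SLC4A7 and SLC4A10 were counted well in both groups, while SLC4A1, SLC4A8 and SLC4A11 were at 0 in all libraries and SLC4A3, SLC4A5 and SLC4A9 had at most 19 counts. SLC4A2, an anion exchanger, had 6241 and 2485 counts in shGOLM1 and 4521 and 4631 counts in shscramble, and SLC4A7, another sodium bicarbonate cotransporter, had 5478 and 1751 counts in shGOLM1 and 3376 and 4286 counts in shscramble. Of 4 tested genes of this family, 0 lay lower, 1 (SLC4A5) lay higher and 3 overlapped. In the wider list of all solute carriers, 206 other members were tested, of which 41 lay lower (19.9%) and 52 higher (25.2%) without overlap. Over all genes tested, 26.5% lay lower and 25.2% higher in this way. The 4 other solute carriers with the smallest unadjusted p had more reads in shGOLM1. SLC6A15, an amino acid transporter, had 507 and 157 counts in shGOLM1 and 1 and 0 counts in shscramble, and SLC41A2, a magnesium transporter, had 231 and 48 counts in shGOLM1 and 8 and 6 counts in shscramble. SLC5A3, the myo-inositol transporter, had a log2 fold change of 1.69 and SLC12A4, a potassium chloride cotransporter, of 1.27, and the adjusted p of each of these 4 was 0.42 in edgeR's quasi-likelihood test. In DESeq2 the adjusted p was 1.15e-06 for SLC6A15, 0.000385 for SLC41A2, 0.0349 for SLC5A3 and 0.118 for SLC12A4.

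IAH1 (ENSG00000134330, chromosome 2, 9473658 to 9496543, plus strand) had 27 and 33 counts in shGOLM1, against 368 and 348 counts in shscramble. It averaged 1.11 ± 0.475 CPM in shGOLM1 and 10.9 ± 0.576 CPM in shscramble (SD, n = 2 each), 9.76-fold lower. Its 3′ end overlaps ADAM17, a membrane protease gene on the opposite strand, which had 2120 and 781 counts in shGOLM1 and 1459 and 1647 counts in shscramble. CASKIN1 overlaps TRAF7 in the same way, with 5119 and 2563 counts of TRAF7 in shGOLM1 and 4580 and 4838 counts in shscramble. How strand was treated in counting is not known here, so reads in these overlaps cannot be assigned with certainty. Neither ADAM17 nor TRAF7 was low in both shGOLM1 libraries.

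SERPINB4 (ENSG00000206073, chromosome 18, 63637259 to 63644298, minus strand) was by far the most abundant of the 10 genes. It had 1628 and 799 counts in shGOLM1, against 8028 and 8172 counts in shscramble. The mean was 41.0 ± 8.38 CPM in shGOLM1 and 246 ± 0.231 CPM in shscramble (SD, n = 2 each), 5.99-fold lower, and at 46.9 and 35.1 CPM it remained well expressed in shGOLM1. Its closest relative SERPINB3, which lies next but 1 to it on the chromosome, had 475 and 930 counts in shGOLM1 and 1857 and 1710 counts in shscramble, which left 50.4% of its shscramble level. By CPM, SERPINB3 was at 13.7 and 40.9 in shGOLM1 and 56.9 and 51.4 in shscramble, so its fall was much smaller in shGOLM1 replicate 2. Both serpins were lower in both shGOLM1 libraries, SERPINB4 more so. Of the distinct 50-base stretches in SERPINB4 transcripts, 20.1% also occur in SERPINB3 transcripts, so part of the reads of either gene could come from the other. Of the other 9 members, 7 shared no stretch of this length with a transcript of another gene, and GLB1L2 and IAH1 shared 1.91% and 0.612%. Besides SERPINB3, SERPINB8 lay lower, with 796 and 791 counts in shGOLM1 and 1705 and 1823 counts in shscramble, and SERPINB2, a plasminogen activator inhibitor, lay higher, with 34 and 38 counts in shGOLM1 and 2 and 5 counts in shscramble. SERPINB1, an inhibitor of neutrophil proteases, overlapped between the groups.

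EDNRA (ENSG00000151617, chromosome 4, 147480917 to 147544954, plus strand) had 19 and 27 counts in shGOLM1, against 126 and 153 counts in shscramble. It averaged 0.867 ± 0.451 CPM in shGOLM1 and 4.23 ± 0.522 CPM in shscramble (SD, n = 2 each), 4.88-fold lower. Little else of the endothelin system was counted. The other receptor EDNRB had 7 and 2 counts in shGOLM1 and 1 and 2 counts in shscramble, and the ligand EDN1 had 7 and 6 counts in shGOLM1 and 4 and 1 counts in shscramble. EDN3 and ECE2 were at 0 in all 4 libraries. ECE1, the protease that makes active endothelin, was the only gene of the 6 that was tested, with 2513 and 1539 counts in shGOLM1 and 1896 and 2006 counts in shscramble.

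BMP5 (ENSG00000112175, chromosome 6, 55753645 to 55875564, minus strand) had 81 and 76 counts in shGOLM1, against 380 and 342 counts in shscramble. It averaged 2.84 ± 0.709 CPM in shGOLM1 and 11.0 ± 0.964 CPM in shscramble (SD, n = 2 each), 3.86-fold lower, the smallest difference among the 10. BMP2, BMP4 and BMP7 were at 0 in every library, so BMP5 and BMP8B were the BMP ligands with more than 100 counts in a library. BMP8B had 582 and 125 counts in shGOLM1 and 393 and 370 counts in shscramble. Of 18 tested ligands, receptors, SMADs, targets and antagonists of the pathway, 1 lay lower, 7 higher and 10 overlapped. That is 5.56% lower and 38.9% higher, beside 26.5% lower and 25.2% higher over all genes tested. The lower gene was ID1, a target of BMP signalling, with 1714 and 826 counts in shGOLM1 and 2805 and 2604 counts in shscramble. ID2, a relative of ID1, had 2169 and 3143 counts in shGOLM1 and 1903 and 1714 counts in shscramble, and SMAD5 had 4541 and 2006 counts in shGOLM1 and 2267 and 2516 counts in shscramble. The sets of partner genes named beside the members were chosen after the members were known, and no gene of them passed edgeR's test at an adjusted p under 0.05. That test called 0 of all 14166 genes tested, lower or higher, so nothing about the partner genes is read from this.

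**Figure D1:**
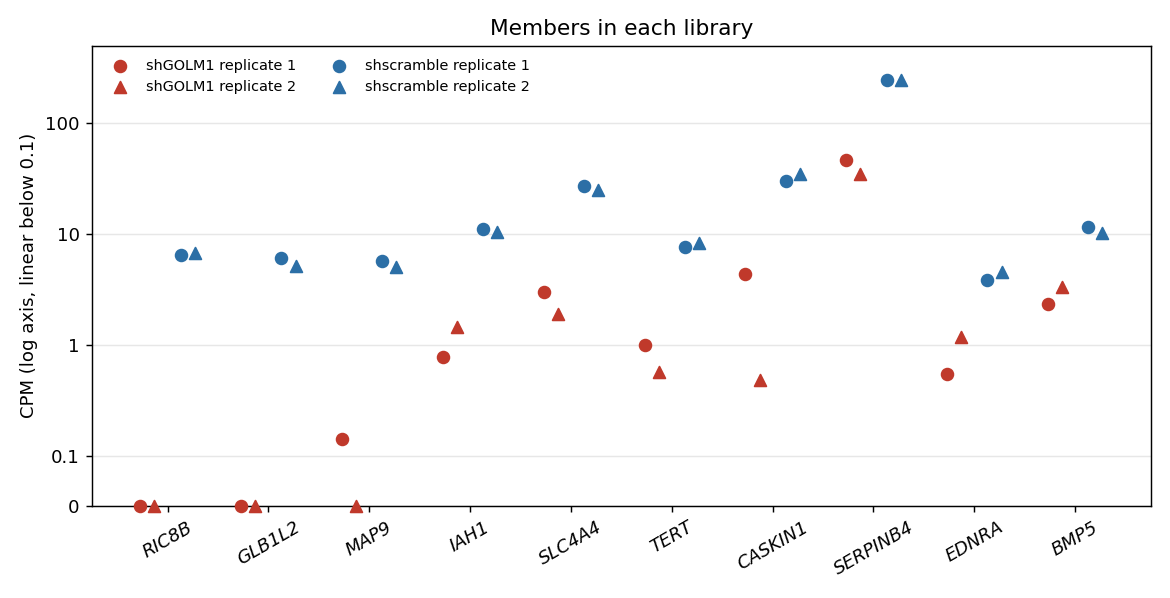
CPM of the 10 genes (y axis, logarithmic above 0.1 and linear below) in each library, with circles for replicate 1 and triangles for replicate 2, shGOLM1 in red on the left of each gene and shscramble in blue on its right. RIC8B and GLB1L2 sit at 0 in both shGOLM1 libraries and MAP9 in replicate 2, and for every gene both shGOLM1 points lie below both shscramble points, as the rule requires.

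Most of the 10 genes were weakly expressed to begin with. Their median smaller shscramble count was 296, against 1335 over the 9358 coding genes past the count minimum, and 9 of the 10 were below that median. On the authors' FPKM scale, which divides by gene length, SERPINB4 stood at 19.8 ± 4.06 FPKM in shGOLM1 and 121 ± 0.159 FPKM in shscramble (SD, n = 2 each). CASKIN1 followed at 0.404 ± 0.459 FPKM in shGOLM1 and 5.47 ± 0.559 FPKM in shscramble. BMP5 and SLC4A4, at 2.75 ± 0.242 and 2.69 ± 0.154 FPKM in shscramble, did not differ beyond their spread, nor did IAH1 and TERT at 1.82 ± 0.0972 and 1.73 ± 0.114 FPKM. The lowest levels in shscramble were those of EDNRA at 0.988 ± 0.122 FPKM, RIC8B at 0.840 ± 0.0265 FPKM, GLB1L2 at 0.762 ± 0.0894 FPKM and MAP9 at 0.604 ± 0.0564 FPKM, of which RIC8B and GLB1L2 lay within their spread. The 3 genes that kept less than 5% were thus also the 3 with the lowest level per length in shscramble. All 10 together summed to 59.2 and 44.1 CPM in shGOLM1 and 356 and 356 CPM in shscramble, and without SERPINB4 to 12.2 and 8.96 CPM in shGOLM1 and 110 and 111 CPM in shscramble.

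**Figure D2:**
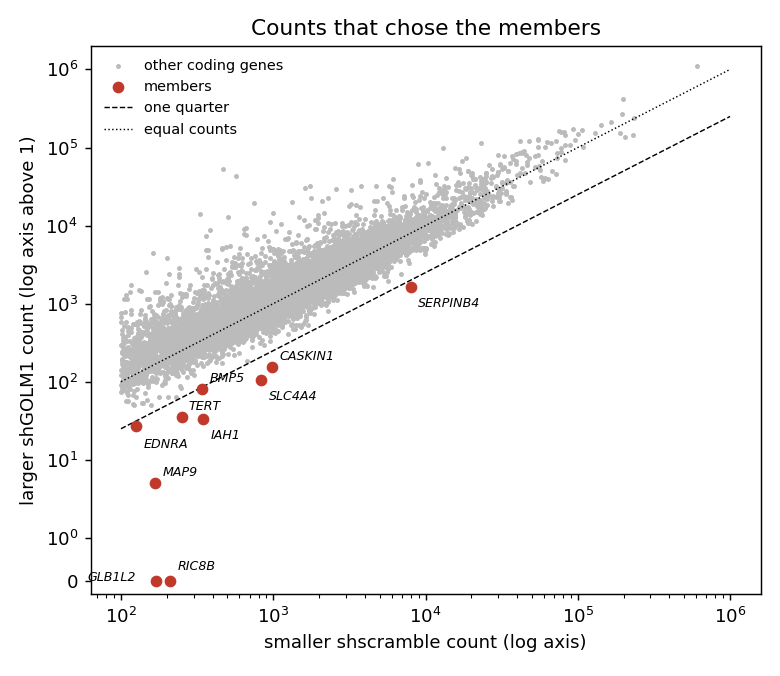
The larger shGOLM1 count (y axis) against the smaller shscramble count (x axis), on logarithmic axes (the y axis linear below 1), for each of the 9358 coding genes with at least 100 counts in both shscramble libraries; members are red and named, the dashed line marks 25% and the dotted line equal counts. The members lie below the dashed line, with SERPINB4 alone above 1000 shscramble counts and BMP5 and EDNRA closest to the line.

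The edge of the group was gradual for the least lowered members. BMP5 and EDNRA, just inside, had larger shGOLM1 counts at 23.7% and 21.4% of the smaller shscramble count. Just outside were TPST1, a protein tyrosine sulfotransferase of the Golgi apparatus, at 27.4% and PODXL, a cell surface sialomucin, at 27.7%. TPST1 had 63 and 35 counts in shGOLM1 and 272 and 230 counts in shscramble. Among genes kept out by the count minimum, TCEAL3 had 0 counts in both shGOLM1 libraries and 90 and 122 counts in shscramble, and ZNF608 had 2 and 0 counts in shGOLM1 and 77 and 75 counts in shscramble. On TMM-scaled CPM in place of counts the rule took 8 genes, without BMP5 and EDNRA.

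The replicates of shGOLM1 did not contribute equally to the choice. Judged on shGOLM1 replicate 1 alone, 12 of the 9358 coding genes were at or below 25% of the smaller shscramble count, the 10 members with CCDC28B and S100A16. Judged on replicate 2 alone, 1423 genes were, or 15.2%. Both figures use the same shscramble libraries and counts not scaled to library size, where the TMM factors of shGOLM1 replicates 1 and 2 were 1.12 and 0.828. The median gene past the count minimum stood at 101% of the smaller shscramble count in replicate 1 and at 63.0% in replicate 2, and the median member at 13.2% and 5.23%. Membership was therefore set almost wholly by shGOLM1 replicate 1, the library in which low values of this size were rare. Within shGOLM1, 5 members were lower in replicate 2 than in replicate 1 by CPM (CASKIN1, TERT, SLC4A4, SERPINB4 and MAP9), and 3 were higher (IAH1, EDNRA and BMP5). Among the 7 members above 0 in both, the ratio of replicate 1 to replicate 2 ran from 0.462 to 9.13, while between the shscramble libraries it ran from 0.839 to 1.18 over all 10.

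**Figure D3:**
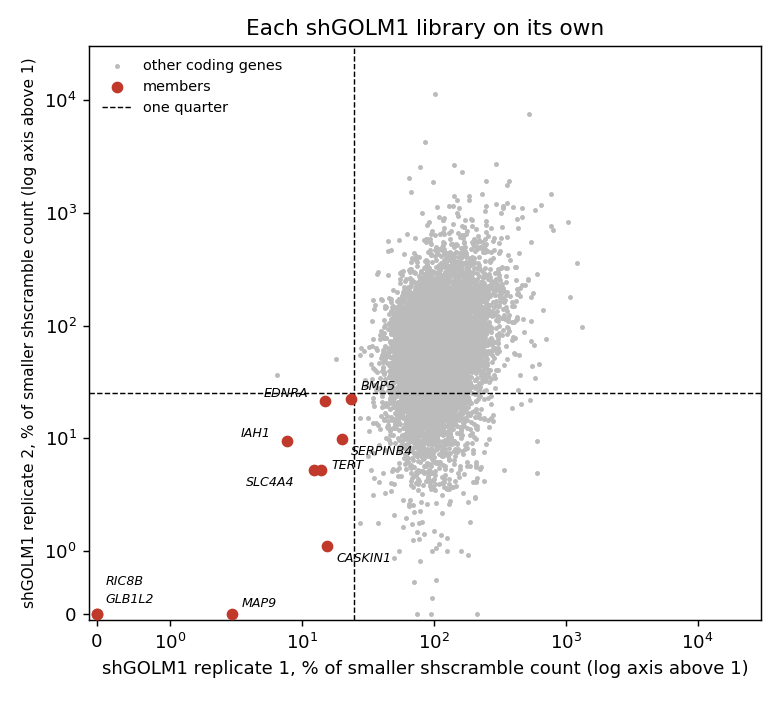
Counts in shGOLM1 replicate 1 (x axis) and replicate 2 (y axis) as a percentage of the smaller shscramble count, both logarithmic above 1, for the 9358 coding genes past the count minimum, with members in red and dashed lines at 25%. The lower left corner holds the 10 members; below the horizontal line lie 1423 genes in all, and left of the vertical line only 12.

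In edgeR's quasi-likelihood test over 14166 genes, none of the 10 members was called lower at an adjusted p under 0.05, and 0% of all genes were (507 genes, 3.58%, were lower at an unadjusted p under 0.05). Without a filter on low counts edgeR called 8 members lower, all but EDNRA and BMP5, where it called 0.0672% of all genes lower. DESeq2 called 9 members lower, all but EDNRA, where it called 0.339% of all genes lower, and limma-voom called 0. The authors' deposited table calls 8 members lower, all but EDNRA and BMP5, where it calls 0.165% of 23642 genes lower, and gives log2 fold changes of -3.36 for TERT, -3.43 for SLC4A4 and -1.98 for BMP5. With the replicate number as a block edgeR called 8 members lower, where it called 0.24% of all genes lower. Since the rule used this contrast, nothing is read from these counts. The median log2 fold change of the members was -3.37, also with RIC8B and GLB1L2 set at their bounds, beside 0.05 over all genes tested.

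Coding genes beside the members on the chromosome were looked at as well. The 10 genes lie on 8 chromosomes, with MAP9, SLC4A4 and EDNRA on chromosome 4, which holds 3.75% of the coding genes past the count minimum. Of 96 coding genes up to 5 genes away from a member, 60 had at least 20 counts in both shscramble libraries, and 0 of these were below 25% of their shscramble level. By the count rule, only 0.107% of the coding genes past the count minimum were that low. The 0 of 60 is near that share, and nothing is read from it. The lowest of the 60 was POLR3B, an RNA polymerase III subunit beside RIC8B, at 36.4%, with 939 and 74 counts in shGOLM1 and 1316 and 1431 counts in shscramble. GUCY1B1, 2 coding genes after MAP9 and under 20 counts in shscramble replicate 2, kept 22.1%. It had 3 and 4 counts in shGOLM1 and 28 and 11 counts in shscramble. The median neighbour kept 86.2%, and 24 of 60 lay lower in both shGOLM1 libraries (40%, beside 33.1% of the coding genes past the count minimum). TMEM263, the next coding gene after RIC8B, had 4739 and 7143 counts in shGOLM1 and 2209 and 2382 counts in shscramble. CLPTM1L, the neighbour of TERT, had 9287 and 2314 counts in shGOLM1 and 9019 and 8837 counts in shscramble, and DCK, before SLC4A4, had 1456 and 1180 counts in shGOLM1 and 2094 and 2329 counts in shscramble. Beside EDNRA, TTC29 had 409 and 151 counts in shGOLM1 and 102 and 101 counts in shscramble, and TMEM184C had 1936 and 459 counts in shGOLM1 and 1651 and 1770 counts in shscramble. RFX4 beside RIC8B, B3GAT1 beside GLB1L2 and SLC6A18 beside TERT were at 0 in all libraries, and GC, after SLC4A4, had 1 count in each shGOLM1 library and 0 in each shscramble library. CPSF3, before IAH1, kept 77.7% of its shscramble level and MLST8, after CASKIN1, kept 63.5%. For MAP9, SERPINB4 and BMP5 the nearest coding genes on both sides were at or near 0 in all libraries, so nothing was measured directly beside them.

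**Figure D4:**
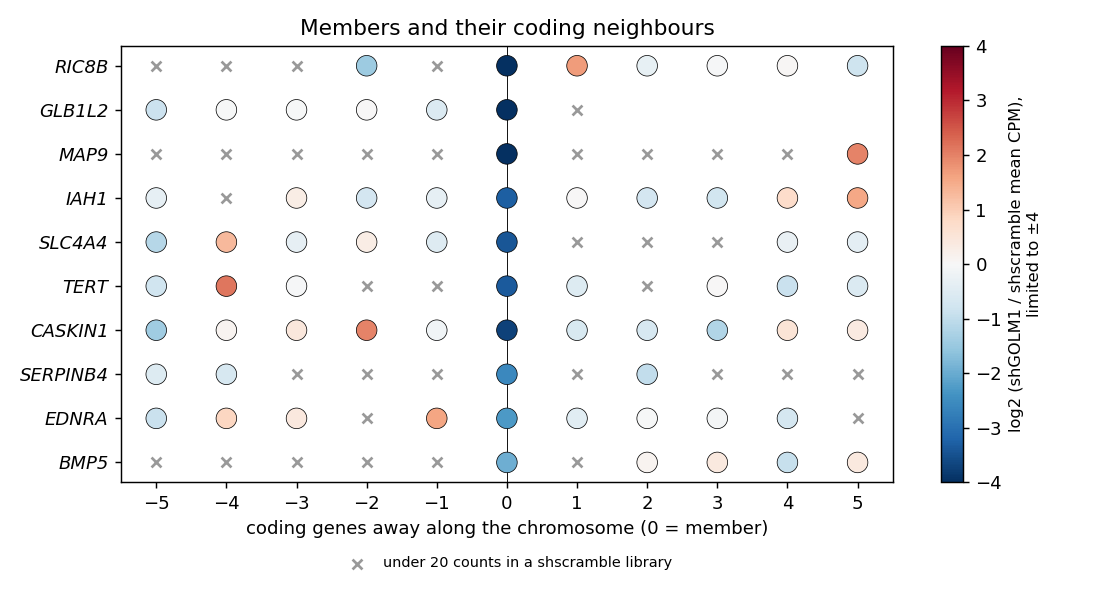
Each row is a member (position 0) with up to 5 coding genes before and after it along the chromosome (x axis); colour gives log2 of the shGOLM1 over the shscramble mean CPM, limited to ±4, with blue for lower and red for higher in shGOLM1, and crosses mark genes under 20 counts in a shscramble library. The blue column at 0 follows from the rule. Of the 60 measured neighbours 0 fell below 25% by group means. The count rule, a different measure, took 0.107% of the coding genes past the count minimum.

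The start-site windows differed widely among the members. RefSeq windows were found for 7 of the 10 genes, 12 windows in all, since IAH1 has 2 annotated starts and SLC4A4 has 5; RIC8B, GLB1L2 and CASKIN1 had no entry. CpG counts per 300-base window were 14 in MAP9, 36 in TERT, 18 in EDNRA, 34 and 42 in IAH1, 2 in SERPINB4 and 1 in BMP5. The 5 windows of SLC4A4 held between 1 and 45. The median was 16 over the member windows and 26 over 11084 windows of the coding genes past the count minimum, and 5 of 12 member windows had at most 6 CpG dinucleotides (41.7%), against 10.8%. Windows of 1 gene are not independent, and 3 of those 5 belong to SLC4A4. The GC box GGGCGG, on either strand, occurred in 7 of 12 member windows (58.3%) and in 67.8% of the windows of the coding genes past the count minimum, members included. The E-box CACGTG occurred in MAP9 and TERT, 2 of 12 windows (16.7%), and in 9.77% of the windows of the coding genes past the count minimum. The TATA box TATAAA was found in BMP5 only, and in 5.58% of those windows. The AP-1 motif TGACTCA was found in 2 windows of SLC4A4, and in 3.27% of those windows. The CCAAT box, searched as CCAAT, occurred in 2 of 12 member windows (16.7%) and in 35.4% of those windows. Letters that match a motif are a description and do not show binding. Median exon length was 5898.5 bases in the members and 5294 bases in the coding genes past the count minimum, and 5 of the 10 lie on the plus strand.

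**Figure D5:**
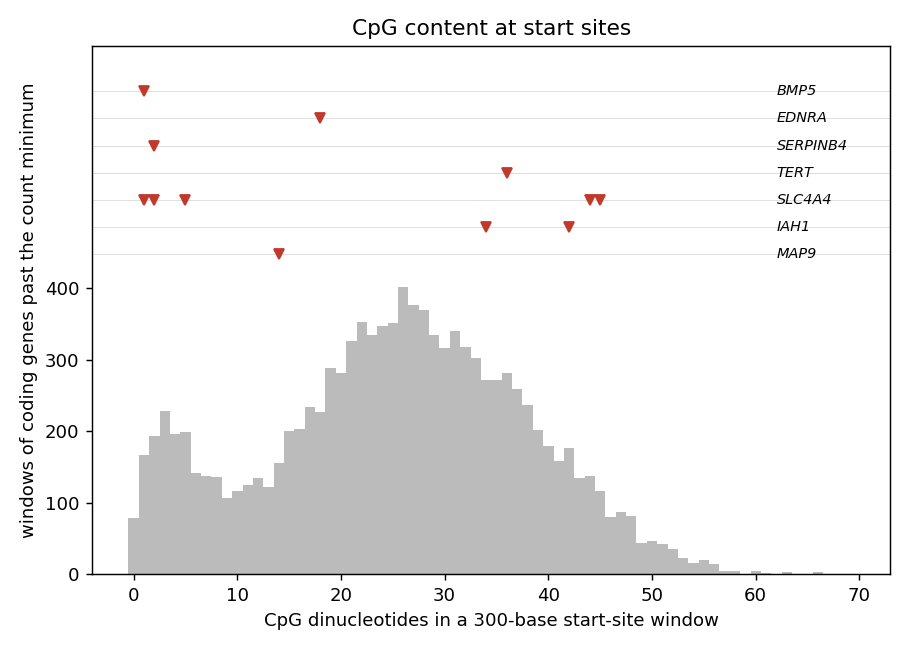
Number of CpG dinucleotides per 300-base start-site window (x axis) over 11084 windows of coding genes past the count minimum (grey bars, y axis), with each member's windows as red triangles on a line of its own above. SLC4A4 has windows at both ends of the range, BMP5 and SERPINB4 lie at the low end with 1 and 2, and TERT and IAH1 lie above the median of 26.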

How the data were processed

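RNA-seq was done on 4 samples, grouped by title, 2 shGOLM1 and 2 shscramble. RNA was extracted with an RNeasy kit and libraries were made with a SMARTER mRNA kit, per the labels' protocols. Aligner, counting tool and strand setting: not given in the sources used here. Mouse builds (GRCm38 and mm10) are listed in the submitters' processing notes, yet all 58735 gene identifiers and coordinates in the table equal GENCODE 29 on GRCh38. The deposited counts are whole reads per gene, without normalization, as the file headers name them. FPKM values, also deposited, are scaled by gene length and library by the authors, with a library total that is not stated. The authors also deposited a mean signal per group, a log2 fold change and p-values with the tool not named.

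Members were taken by their counts as deposited. They and the lists were chosen with earlier results of these data known. All genes were fitted in edgeR 4.0.16 under R 4.3.3 (quasi-likelihood F test, with limma 3.58.1 for voom), using TMM factors of 1.12 and 0.828 in shGOLM1 and 1.02 and 1.05 in shscramble, filterByExpr, two-sided, with Benjamini-Hochberg adjustment over 14166 genes. All 10 members passed the filter. Alternatives were other scalings, filters, DESeq2 1.42.0, limma-voom, the replicate block, each library left out and other thresholds of the rule. Since separate cultures are not stated, p-values refer to the spread among these libraries, possibly technical. Named genes were all members, GOLM1, BCL2L1, neighbours on the chromosome, and from the 1 of 26 lists and families that held a member, solute carriers, the 4 lowest in p with a mean of 1 CPM or more. Other genes were named after their values were seen. Figures used matplotlib 3.10.9.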

Additional observations from a re-analysis of the deposited data

How the results depend on the processing

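The rule took 9 genes on CPM over library totals, 8 on TMM-scaled CPM and 8 on DESeq2 size factors, 14 with all biotypes, 14 with a minimum of 50 counts and 7 with 200. It took 144 genes at 50% and 5 at 12.5% of the smaller shscramble count. With 1 library left out it took between 12 and 1423 genes, the highest without shGOLM1 replicate 1. Genes called lower and higher over the table, 0 and 0 in edgeR, were 17 and 175 with no filter on low counts, 34 and 169 with the replicate block, and 48 and 485 in DESeq2. Without 1 library they ran from 4 to 5212 lower and from 16 to 5078 higher. Without shGOLM1 replicate 1 there were 5212 lower, without shGOLM1 replicate 2 there were 3634, without shscramble replicate 1 there were 5 and without shscramble replicate 2 there were 4. Members called lower were 8 with no filter, 8 with the replicate block and 9 in DESeq2, and between 2 and 10 without 1 library. With a single shGOLM1 library the fit assumes that it varies like the shscramble pair. The median log2 fold change of the members ran from -3.83 to -3.07 without 1 library and differed less under every other alternative. All 87 recomputed log2 fold changes of the 8 members above 0 stayed below 0. Those that moved by over 1.5 times in fold were CASKIN1, at -6.11 without shGOLM1 replicate 1, -2.90 without shGOLM1 replicate 2 and -4.35 with the replicate block, EDNRA, at -2.96 without shGOLM1 replicate 2, and MAP9, at -5.21 without shGOLM1 replicate 2 and at 0 counts without shGOLM1 replicate 1. The replicate numbers are shared by the groups, but the deviations of same-numbered libraries correlated at -0.0977 across genes, so the numbers give no sign of pairing. Counts under 50 in both shGOLM1 libraries limit the precision of MAP9, IAH1, TERT and EDNRA.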

Other observations

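Beside the coding genes, 4 noncoding genes met the same count thresholds. SLC7A11-AS1 had 39 and 133 counts in shGOLM1 and 671 and 619 counts in shscramble, and LINC01821 had 26 and 13 counts in shGOLM1 and 193 and 166 counts in shscramble. SLC8A1-AS1 and ARLNC1 were the others. The reverse pattern was more common: 64 coding genes had at least 100 counts in both shGOLM1 libraries and, in both shscramble libraries, at most 25% of the smaller shGOLM1 count.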
